A study of Sus scrofa with 14 samples.

Results

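KCNMB1, OXTR and PTGER3 encode a channel subunit and 2 receptors that set how readily uterine smooth muscle contracts. They were followed over 14 arrays of pregnant pig uterus as the 3 genes, of 6765 with a symbol of their own on the array, to which 4 of 23999 tested probe sets belonged. The members were chosen from earlier results of these data, by their difference between the groups and by how they stood to ACTG2, the gamma actin of visceral smooth muscle. Their difference between the groups and their relation to ACTG2 and to muscle content are therefore given as a description, without a test. All sows were Iberian x Meishan F2 animals in the fifth gestation, slaughtered at day 30 to 32, and 5 were of high and 9 of low prolificacy. Each sow gave 1 array of frozen uterus. The labels do not say which layer of the uterine wall was sampled or how near to a conceptus. Values are log2 levels, so a difference of 1 is a doubling of the array signal, and a level of 1 probe set is not comparable with that of another.

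The uterine wall holds an inner endometrium of epithelium and stroma and an outer myometrium of smooth muscle. A myometrial cell contracts when calcium enters through voltage-gated channels or leaves internal stores, and potassium channels oppose this by bringing the membrane back towards rest. Oxytocin acts through OXTR, which couples mainly to Gq and releases stored calcium. Prostaglandin E2 acts through several receptors, of which EP3, encoded by PTGER3, couples mainly to Gi and lowers cyclic AMP. KCNMB1 is the smooth muscle beta subunit of the BK channel, a large-conductance potassium channel opened by calcium and voltage, and it raises the sensitivity of that channel to calcium.

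The arrays differed in the abundance of muscle transcripts, and every result on the members stands beside that difference. Of 20 smooth muscle genes on the array, 19 were lower in high prolificacy uteri at an adjusted p under 0.05 in limma, with a median difference of -2.83, where 4.35% of all probe sets were called lower and 3.50% higher. The mean level of these genes per array lay between 7.51 and 10.32 in high and between 11.01 and 12.31 in low prolificacy uteri. Epithelial genes ran the other way, with 8 of 15 higher, 0 lower, and mean levels between 9.36 and 10.18 in high against 6.22 and 8.97 in low prolificacy uteri. Stromal fibroblast genes were lower in 4 of 12 cases and higher in 1, with mean levels between 8.17 and 9.94 in high against 8.99 and 10.38 in low prolificacy uteri. COL6A3, a collagen VI chain, differed by -2.70. Of 7 vascular mural genes 1 was lower, MCAM at -3.41, and their mean levels lay between 6.21 and 6.93 in high and between 6.65 and 7.61 in low prolificacy uteri. Of endothelial genes 1 of 10 was higher and 1 lower, of leukocyte genes 1 of 13 was higher and 0 lower, and of 11 trophoblast genes 0 passed. CNN1, a calponin of smooth muscle, differed by -4.62, and FHL1, a LIM protein of muscle, by -3.82. In whole tissue, fewer cells of a type and less RNA per cell cannot be told apart, and the part of tissue composition in the differences below was not tested.

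ACTG2 itself was at 11.98, 8.26, 5.92, 9.34 and 6.57 in the 5 high prolificacy arrays, numbered 1 to 5 in that order. In the 9 low prolificacy arrays it lay between 12.85 and 13.79, with a median of 13.42. The groups did not overlap, and the high prolificacy array nearest to the others was number 1. The fold difference was 32.8, lower in high prolificacy uteri, and 60.8 without high prolificacy array 1.

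KCNMB1 was measured by a bright and a dimmer probe set. The bright one was at 9.04, 5.93, 4.26, 3.93 and 5.06 in the high prolificacy arrays. In the low prolificacy arrays it was at 10.49, 10.14, 11.56, 10.77, 10.21, 11.03, 11.07, 10.88 and 11.44. No high prolificacy array reached any low one, as was true in the same direction of 1.74% of all probe sets, and array 1 was again the one closest to the low group, 1.10 below its lowest member. The high prolificacy mean was 5.64 ± 2.05 (SD, n = 5), against 10.84 ± 0.50 (SD, n = 9) in the low group. The difference of -5.20 had a 95% interval of -6.56 to -3.84 and stands for a level 36.7-fold lower in high prolificacy uteri, or 66.1-fold without high prolificacy array 1. Whether the lowest high prolificacy levels lie above the background of the array is not known, so these folds are approximate and may understate the difference in transcript.

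The dimmer KCNMB1 probe set had a smaller range. It was at 7.05, 6.32, 6.38, 5.99 and 6.91 in high prolificacy uteri and between 6.80 and 8.82, with a median of 7.79, in low prolificacy uteri. The groups met at low prolificacy array 8, whose level of 6.80 lay below 2 of the high ones. The difference was -1.47 (95% interval -2.16 to -0.79), a 2.78-fold lower level. Both probe sets of the gene thus differed in the same direction and by unequal amounts.

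OXTR showed no such separation. Its probe set was at 5.74, 5.74, 5.97, 5.82 and 6.51 in high prolificacy uteri. In low prolificacy uteri it was at 5.73, 5.44, 5.84, 6.11, 5.87, 6.24, 6.47, 5.71 and 6.20. The high prolificacy arrays lay within the spread of the low ones except for array 5, the highest of all 14. The high prolificacy mean was 5.96 ± 0.32 (SD, n = 5), against 5.96 ± 0.32 (SD, n = 9) in the low group, and the 95% interval of the difference ran from -0.38 to 0.38. The probe set was brighter than 51.8% of all probe sets, and whether such a level lies above the background of the array is not known. Its SD over the 14 arrays was 0.31, against a median of 0.36 over all probe sets.

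PTGER3 was at 5.15, 3.91, 4.17, 4.34 and 3.92 in high prolificacy uteri. In low prolificacy uteri it was at 5.84, 5.07, 6.23, 6.00, 4.57, 6.75, 6.05, 6.26 and 6.12. Of the high prolificacy arrays, 4 lay below every low one, and array 1 lay above low prolificacy arrays 2 and 5. The high prolificacy mean was 4.30 ± 0.51 (SD, n = 5), against 5.88 ± 0.66 (SD, n = 9) in the low group. The difference of -1.58 (95% interval -2.26 to -0.90) is a 2.99-fold lower level. This is a dim probe set, brighter than 41.3% of all, so the high prolificacy levels may be near background. It recognises alternative transcripts of the gene, which were not measured apart.

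**Figure D1:**
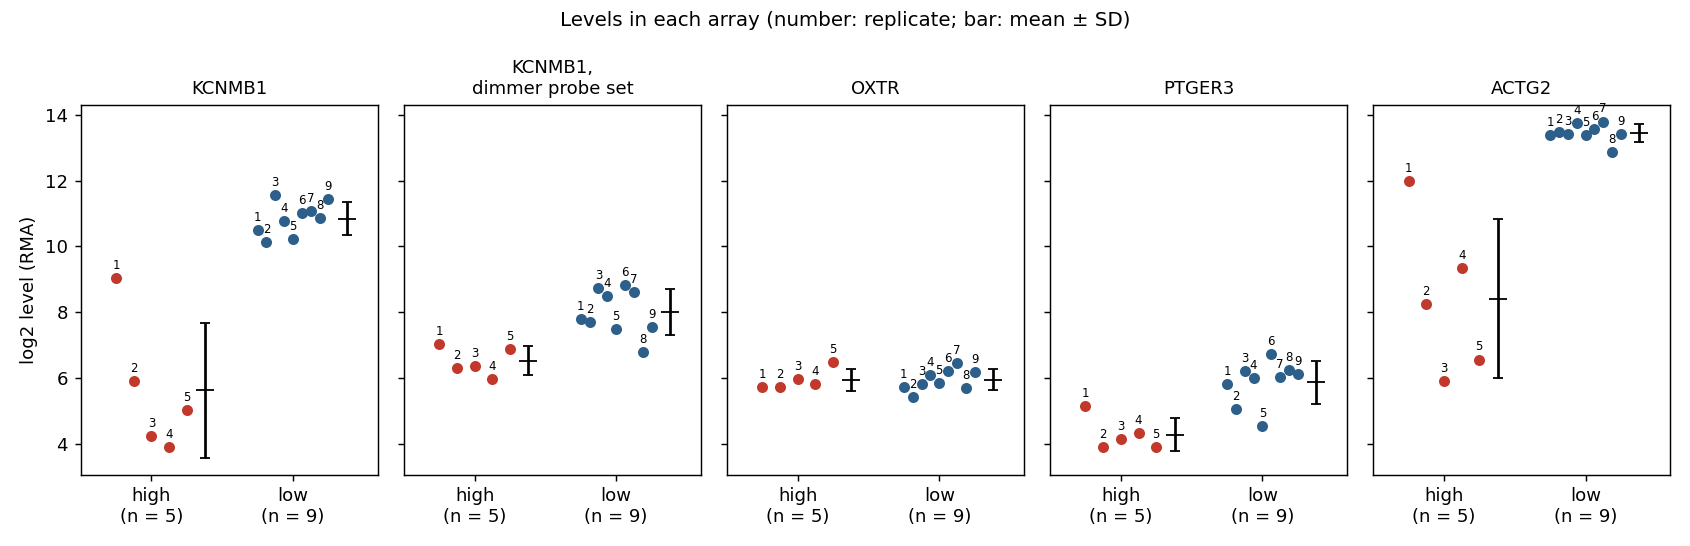
Log2 level of the member probe sets and of ACTG2 in each array, with the 5 high prolificacy arrays left of the 9 low ones and each group's mean and SD. The bright KCNMB1 probe set and ACTG2 do not overlap between the groups, PTGER3 overlaps in 1 high prolificacy array, and the OXTR means are 5.96 in both groups.

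The groups differ in ACTG2, so a member can differ between them without changing with ACTG2 from sow to sow. The slope on ACTG2 within groups leaves the difference between the groups out. In limma with group and ACTG2 as terms, 0.150% of probe sets had a positive and 0.108% a negative slope at an adjusted p under 0.05. The bright KCNMB1 probe set changed by 0.63 per unit of ACTG2 (SE 0.17, 95% interval 0.26 to 1.00). OXTR had a slope of -0.06 (95% interval -0.20 to 0.075). In the low prolificacy arrays alone its slope was 0.69 (-0.10 to 1.49), and in the high ones alone -0.083 (-0.23 to 0.069). PTGER3 had a slope of 0.18 (-0.065 to 0.415), and the dimmer KCNMB1 probe set one of 0.095 (-0.16 to 0.35). For that dimmer probe set the slope was 2.03 (0.82 to 3.23) in the low prolificacy arrays alone and 0.046 (-0.17 to 0.26) in the high ones. The slope in the high minus that in the low prolificacy arrays was -1.98 (95% interval -3.22 to -0.74) for this dimmer probe set. It was -0.78 (-1.58 to 0.023) for OXTR, 0.55 (-1.92 to 3.03) for the bright KCNMB1 probe set and 0.15 (-1.47 to 1.77) for PTGER3. Over all probe sets limma called 0 such differences of slope (2831 at an unadjusted p under 0.05). Whether a common slope describes both groups was not tested for the members.

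The KCNMB1 slope rested on 1 high prolificacy array. The high prolificacy arrays held 97.5% of the squared deviation of ACTG2 from its group means and 89.4% of that of KCNMB1. Array 1, with the highest ACTG2 and the highest KCNMB1 of its group, carried the relation: without it the slope was -0.0098. Array 4 went the other way, with ACTG2 at 9.34 and KCNMB1 at 3.93, the lowest KCNMB1 level measured. Without array 4 the slope was 0.75. OXTR kept a slope near 0 without high prolificacy array 1 (-0.069). The difference between the KCNMB1 and OXTR slopes was not tested, since the members were chosen by how they stood to ACTG2.

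**Figure D2:**
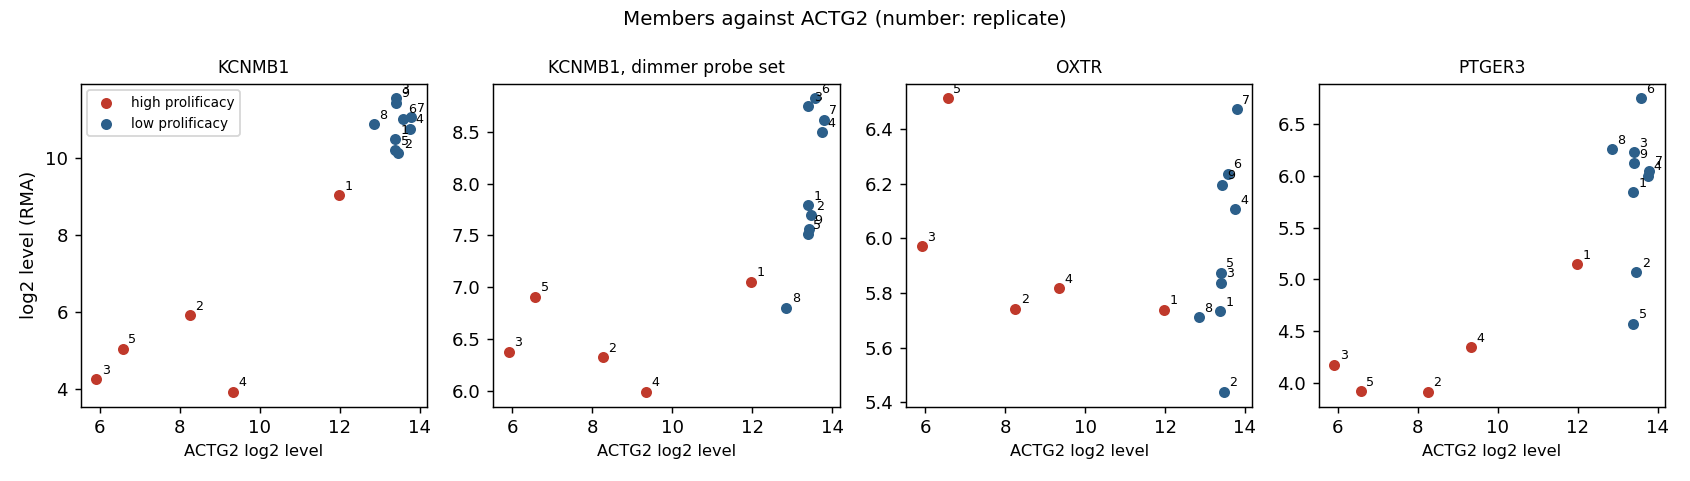
Log2 level of each member probe set against the ACTG2 log2 level, 1 point per array, with its replicate number beside it. High prolificacy arrays spread from 5.92 to 11.98 on the ACTG2 axis, while the low ones stand between 12.85 and 13.79, and OXTR is as high at low ACTG2 as at high ACTG2.

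The groups shared no ACTG2 level, with a highest of 11.98 in high and a lowest of 12.85 in low prolificacy arrays. A group difference at equal ACTG2 is therefore carried by the fitted common slope, not by arrays of like ACTG2. For the bright KCNMB1 probe set that slope was -0.0098 without high prolificacy array 1. At equal ACTG2, the fitted group difference had an interval that held 0 for every member. It was -2.02 for the bright KCNMB1 probe set (95% interval -4.13 to 0.093) and -0.32 for OXTR (-1.12 to 0.47). For PTGER3 it was -0.70 (-2.07 to 0.68). Group accounted for 77.4% of the variance of ACTG2, which widened these intervals, and 0.00417% of all probe sets were called in this fit.

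Among the 9 low prolificacy arrays, ACTG2 varied little, and the other smooth muscle genes gave a second measure of muscle content. Their mean was taken over 19 genes without ACTG2, each centred on its own mean, and ran between 0.46 and 1.81 in these arrays. A total of 18 relations were computed over the low arrays. These relations with the muscle mean were added after the values were seen.

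Within the low prolificacy group OXTR ran with that muscle mean. OXTR was lowest, at 5.44, in array 2, whose muscle mean of 0.57 was the second lowest, and highest, at 6.47, in array 7, which had the highest muscle mean. Pearson's r was 0.866 and Spearman's rho 0.817 over 9 arrays. Without the 2 arrays farthest from the median muscle mean, 7 and 5, r was 0.939, and it lay between 0.782 and 0.958 when each array was left out in turn. Over all probe sets limma called 0 slopes on this mean, against 3034 at an unadjusted p under 0.05. The range of OXTR in this group, 5.44 to 6.47, is about 1 log2 unit. Whether this signal lies above the background of the array is not known, so the relation may not be one of OXTR transcript.

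The epithelial mean ran opposite to the muscle mean in the same arrays (r = -0.823 and rho = -0.867, n = 9). The marker lists were written with earlier results of these data known, so this is a description without a test. Arrays 7 and 9 had the lowest epithelial means, -2.48 and -2.12, and this relation was not computed without them. OXTR had an r of -0.748 with the epithelial mean and a rho of -0.683. Without the 2 farthest arrays, 7 and 9, r was -0.450, and without array 7 alone it was -0.572. Because the epithelial mean ran opposite to the muscle mean, these OXTR values are also a description without a test. Which of these tissue measures OXTR followed cannot be told apart in these arrays. In the high prolificacy group the highest OXTR level, 6.51, was in array 5 with an ACTG2 of 6.57 and a muscle mean of -2.07. With 5 arrays no correlation was computed there.

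The other members had a lower r with the muscle mean in the low prolificacy arrays, a difference that was not tested. For the bright KCNMB1 probe set r was 0.674 and rho 0.733, with an r of 0.667 without arrays 7 and 5 and of 0.569 to 0.791 with 1 array left out. For PTGER3 r was 0.665 and rho 0.517, with an r of 0.665 without the same arrays.

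Against ACTG2 itself, KCNMB1 had an r of 0.050 and a rho of 0.183 in the 9 low prolificacy arrays. For PTGER3 these were 0.013 and 0.033. OXTR had an r of 0.589 and a rho of 0.667, with an r of 0.424 without arrays 8 and 7. Its slope on ACTG2 in these arrays was 0.69, and other genes of the oxytocin and vasopressin list had like slopes, OXT 0.62 and AVPR2 0.65. Others of that list went the other way, among them CD38 (-0.18), RGS2 (-1.63) and RGS4 (-1.96). Like slopes were also found in other lists, among them ADRB3 (0.72), KCNJ2 (0.71) and GJB5 (0.66), so they were not particular to the oxytocin list. Those other lists held negative slopes too, such as STIM2 (-0.74) and CLCN3 (-1.71). The dimmer KCNMB1 probe set had an r of 0.793 and a rho of 0.617, and r was 0.535 without those arrays and 0.598 without array 8 alone. Low prolificacy array 8 had the lowest ACTG2 of its group and the lowest level of the dimmer KCNMB1 probe set.

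**Figure D3:**
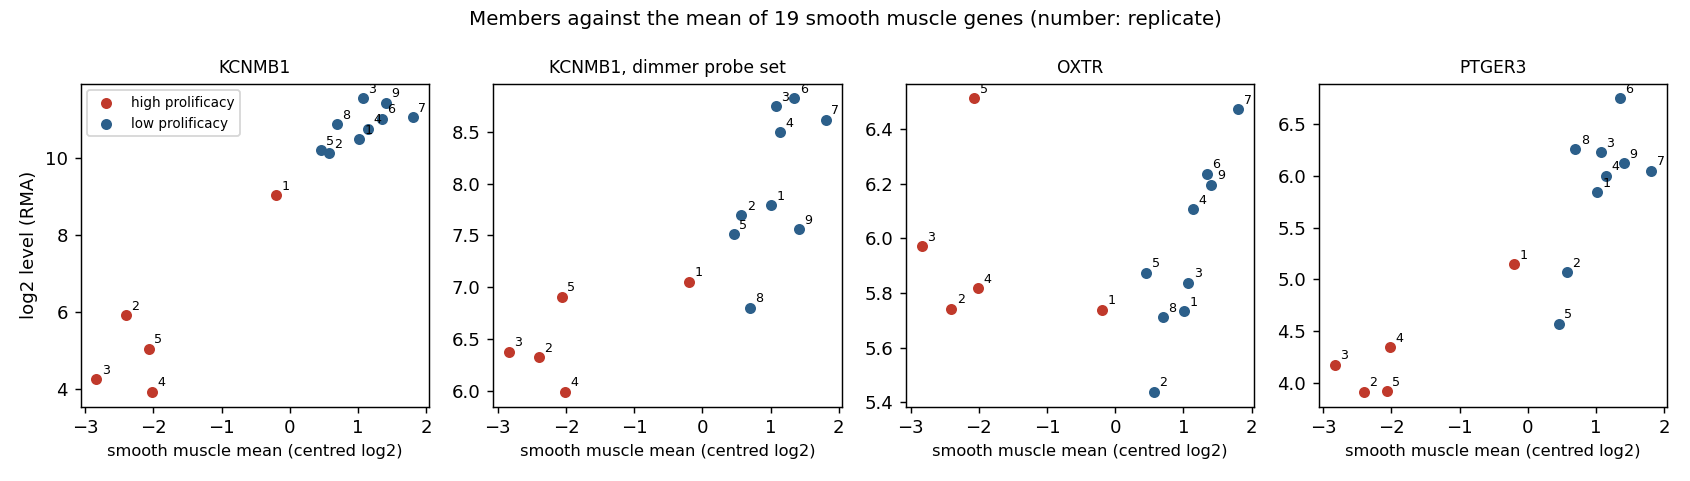
Log2 level of each member probe set against the mean of 19 smooth muscle genes without ACTG2, each centred on its mean, 1 point per array. Among the 9 low prolificacy arrays OXTR climbs with the muscle mean (r = 0.866), whereas high prolificacy array 5 has the highest OXTR level at a muscle mean of -2.07.

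Between members, KCNMB1 and PTGER3 had an r of 0.761 and a rho of 0.733 in the low prolificacy arrays. Without the 2 farthest arrays r was 0.731. Muscle content was not taken out of this relation, and r with the muscle mean was 0.674 for KCNMB1 and 0.665 for PTGER3. The members were chosen by how they stood to muscle content, so these values too are a description without a test. OXTR had an r of 0.552 with KCNMB1 and of 0.477 with PTGER3 in the 9 arrays.

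The genes with the most similar pattern were taken as those with the highest r of deviations from the group means over the 14 arrays, which were normalised together. For KCNMB1 they were GYG1 (0.957), PDLIM3 (0.919), DES (0.909), FIBIN (0.894) and TOX3 (0.886). DES encodes desmin, the muscle intermediate filament protein, PDLIM3 a PDZ and LIM protein of muscle, and GYG1 glycogenin, which primes glycogen. For OXTR they were ITPR1 (0.896), an inositol trisphosphate receptor, CAMK1 (0.888), NEFL (0.861), TMEM213 (0.847) and SIGLEC1 (0.833). Mean levels were 5.36 for ITPR1, 3.69 for NEFL, 5.67 for TMEM213 and 3.97 for SIGLEC1, below the lowest array median of 5.72, and 7.38 for CAMK1. Whether the dim ones lie above the background of the array is not known, so this likeness may not be one of transcripts. For PTGER3 they were MRAP2 (0.810), CMBL (0.804), MEIS1 (0.800), NCAM1 (0.798) and SMTN (0.771), the last of which encodes smoothelin of contractile smooth muscle.

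Beyond the members, 9 lists covered the channels, calcium handling and receptors of contraction. Of 91 other genes of these lists on the array, 13 were lower and 4 higher in high prolificacy uteri, which is 14.3% and 4.40%, against 4.35% and 3.50% of all probe sets. The list shares count the brightest probe set of each gene and the others count every probe set, so they are not like for like. The lists were also written with earlier results of these data known. Their median difference was -0.21, against 0.039 over all probe sets. Of these 91 genes, 0 had an ACTG2 slope that passed in limma (15 at an unadjusted p under 0.05).

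The only other listed BK channel subunit with a probe set annotated to its symbol alone was KCNMA1, the pore-forming alpha subunit, chosen here after its values were seen. It averaged 5.28 ± 0.49 in high and 5.61 ± 0.31 in low prolificacy uteri (SD, n = 5 and 9), a difference of -0.33 that did not pass in limma (adjusted p = 0.403). A dimmer probe set of the gene differed by -1.33 (adjusted p = 0.013 in limma). The 2 probe sets of KCNMA1 therefore gave different calls.

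Of 11 other potassium channel genes, 1 was lower and 0 higher, with a median difference of -0.12. It was KCNE2, an accessory subunit of voltage-gated potassium channels, at 4.21 ± 0.48 in high and 6.60 ± 1.09 in low prolificacy uteri (difference -2.38, adjusted p = 0.0077 in limma). A dimmer KCNE2 probe set differed by -0.24 and did not pass (adjusted p = 0.499 in limma). Of 8 calcium, sodium and chloride entry channel genes, CACNA2D1 was the 1 that fell. This auxiliary subunit of voltage-gated calcium channels averaged 6.06 ± 0.70 in high and 7.76 ± 0.55 in low prolificacy uteri (difference -1.69, adjusted p = 0.0049 in limma). Among potassium and entry channels, 17 of 19 genes thus did not pass by their brightest probe set. A dimmer probe set of CLCN3, of the entry channel list, differed by -0.49 and passed (adjusted p = 0.028 in limma), while its brightest differed by 0.30.

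Calcium stores and pumps changed in both directions, with 2 of 17 genes higher and 2 lower. PLN, phospholamban, which restrains the calcium pump of the sarcoplasmic reticulum, averaged 5.42 ± 1.80 in high and 9.47 ± 0.89 in low prolificacy uteri. It was 16.6-fold lower (difference -4.05, adjusted p = 0.0024 in limma), and its other probe set differed by -4.06. RYR3, a ryanodine receptor of internal stores, fell to 4.22 ± 0.09 in high against 5.71 ± 0.70 in low prolificacy uteri (adjusted p = 0.0075 in limma), while its other 3 probe sets did not pass. ITPR3, an inositol trisphosphate receptor abundant in epithelia, was higher, at 8.58 ± 1.08 against 6.46 ± 0.51 (difference 2.11, adjusted p = 0.0045 in limma), and a dim second probe set differed by 0.037. ATP1B1, the beta subunit of the sodium pump, was higher at 10.84 ± 1.36 against 8.55 ± 0.74 (difference 2.29, adjusted p = 0.013 in limma), and that call was lost without high prolificacy array 3.

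The list around oxytocin and vasopressin held 11 genes other than OXTR, of which 1 was higher and 0 lower, with a median difference of 0.016. The higher one was PRKCD, a protein kinase C isoform, at 6.30 ± 0.53 in high and 5.10 ± 0.41 in low prolificacy uteri, without overlap (adjusted p = 0.0078 in limma). OXT, the gene of the hormone, differed by -0.060 and ITPR1 by -0.22, both named here after their values were seen.

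Of 13 genes of prostanoid receptors and cyclic nucleotide signalling other than PTGER3, 2 were lower and 0 higher, with a median of -0.53. GNAZ, an alpha subunit of the Gi family, averaged 6.44 ± 0.16 in high and 7.45 ± 0.47 in low prolificacy uteri, without overlap (difference -1.01, adjusted p = 0.0095 in limma). PRKACB, a catalytic subunit of protein kinase A, averaged 6.46 ± 0.77 against 7.87 ± 0.50 (difference -1.40, adjusted p = 0.014 in limma) and lost its call without high prolificacy array 3. PTGFR, the receptor of prostaglandin F2 alpha and looked up after the values were seen, averaged 6.25 ± 1.45 in high and 7.84 ± 0.48 in low prolificacy uteri and did not pass (adjusted p = 0.054 in limma). Its dimmer probe set differed by -0.066.

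Among 14 other receptors of contraction and relaxation, 3 were lower and 1 higher. NPR2, a natriuretic peptide receptor, differed by -1.04 without overlap between the groups (adjusted p = 0.014 in limma), and ADRA2A, an alpha-2 adrenergic receptor, by -1.38 (adjusted p = 0.024 in limma). LHCGR, the receptor of luteinising hormone, differed by -2.43 (adjusted p = 0.041 in limma), and its dimmer probe set by -1.13, which did not pass (adjusted p = 0.154 in limma). ADORA1, an adenosine receptor, was higher by 1.17 (adjusted p = 0.014 in limma). NPR2 lost its call without high prolificacy array 2, ADRA2A without array 2 or 3, and LHCGR in 9 of 14 fits with 1 array left out, those without high prolificacy arrays 2, 3, 4 or 5 and low prolificacy arrays 3, 6, 7, 8 or 9.

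Of 11 genes of calcium sensitization, which adjusts the force of contraction at a given calcium level, 4 were lower and 0 higher, with a median of -0.79. CAMK2G, a calmodulin-dependent kinase, averaged 7.27 ± 0.68 in high and 9.35 ± 0.57 in low prolificacy uteri without overlap (difference -2.07, adjusted p = 0.0019 in limma). PPP1R14A, the CPI-17 inhibitor of myosin phosphatase, differed by -1.57 (adjusted p = 0.0045 in limma), and PPP1R12A, the targeting subunit of that phosphatase, by -1.11 (adjusted p = 0.0086 in limma). CAMK2D differed by -0.85 (adjusted p = 0.045 in limma), a call lost in 10 of 14 fits with 1 array left out, those without high prolificacy arrays 2, 3 or 5 and low prolificacy arrays 1, 2, 4, 6, 7, 8 or 9. Of 5 gap junction genes, whose connexins couple myometrial cells electrically, 0 passed in limma (3 at an unadjusted p under 0.05). GJA5 had the smallest p, at 6.35 ± 1.18 in high and 7.67 ± 0.50 in low prolificacy uteri (adjusted p = 0.062 in limma). GJA1, the main connexin of labouring myometrium and named after its values were seen, differed by -1.41 (adjusted p = 0.079 in limma).

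**Figure D4:**
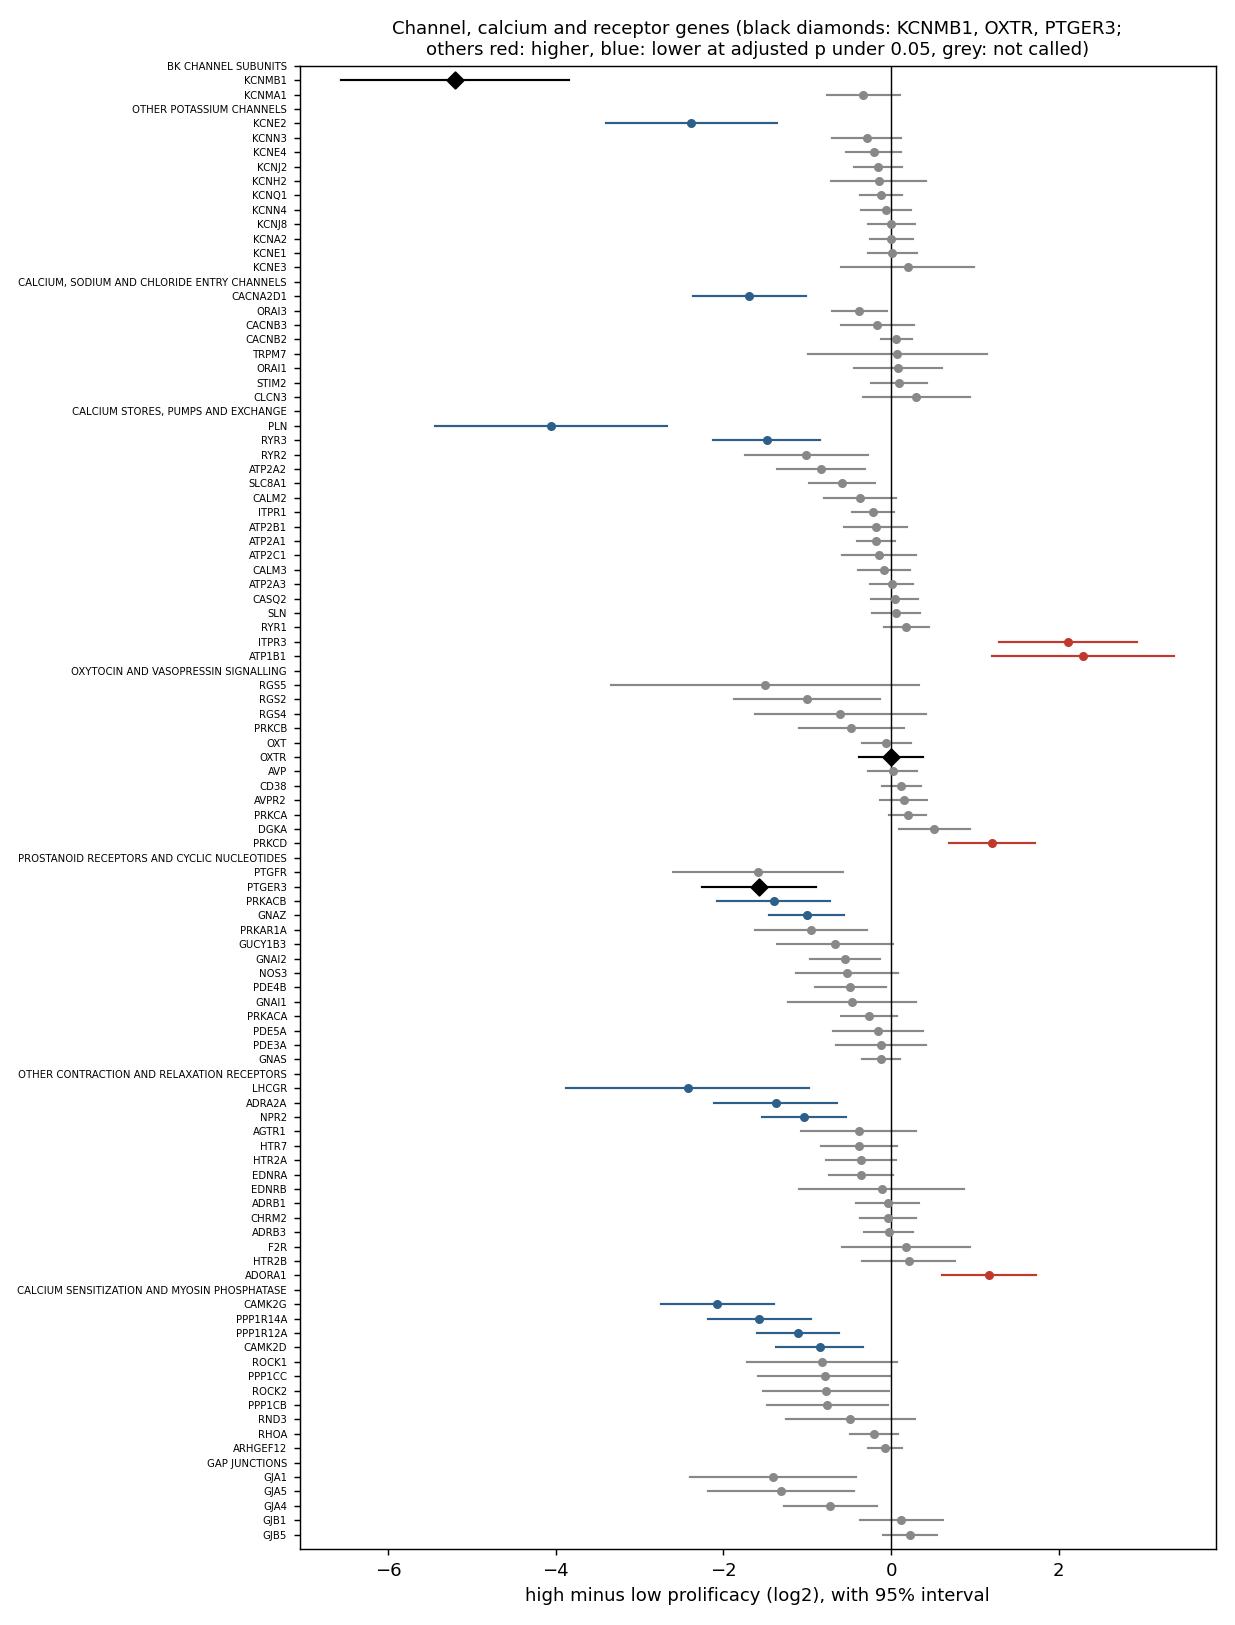
High minus low prolificacy difference on the log2 scale, with its 95% interval, for the genes of the contraction lists. Black diamonds are KCNMB1, OXTR and PTGER3, and OXTR lies at 0 between KCNMB1 at -5.20 and the higher genes such as ITPR3 at 2.11.

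The smooth muscle genes gave a scale for the ACTG2 slopes of the members. Of the 19 other than ACTG2, 5 had a positive slope that passed in limma, TPM2, DES, CNN1, TAGLN and ACTA2, and the median slope was 0.36, against -0.026 over all probe sets. The slope of the bright KCNMB1 probe set, 0.63, lay above that median, those of PTGER3 (0.18) and of the dimmer KCNMB1 probe set (0.095) lay between the medians, and that of OXTR (-0.06) lay below both. These slopes share the ACTG2 values of high prolificacy array 1, without which limma called 0 slopes among all probe sets (2027 at an unadjusted p under 0.05).

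**Figure D5:**
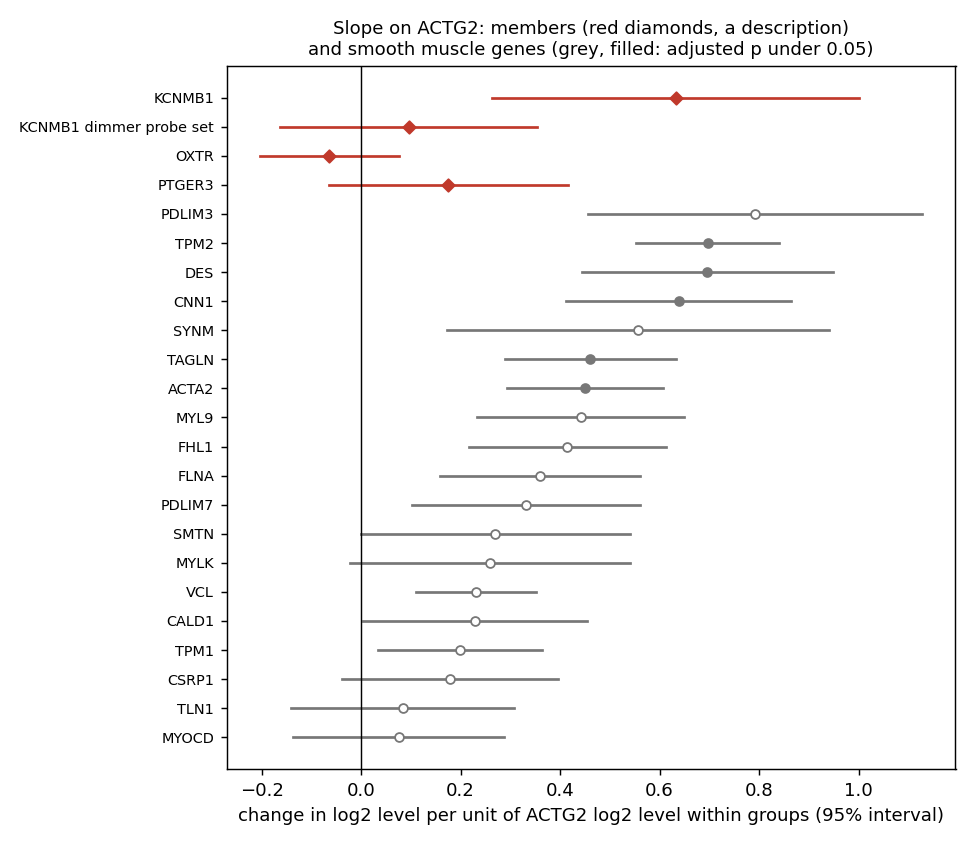
Change in log2 level per unit of ACTG2 log2 level within groups, with its 95% interval, for the members and the genes of the smooth muscle list. KCNMB1 at 0.63 stands among the muscle genes and OXTR at -0.06 next to 0.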

How the data were processed

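Total RNA of 14 uteri was labelled with biotin and hybridized to the Affymetrix porcine array. Per the submitters' processing notes, the deposited log2 values came from RMA, whose version and settings were not given in the sources used. RMA equalises array distributions, and no detection calls were used. Array medians lay between 5.72 and 5.84, and precision is limited by the number of arrays.

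Of 24123 probe sets, 124 controls were left out. Of the other 23999, 10069 had 1 symbol in the platform annotation, 198 several and 13732 none. Gene numbers of 9961 were found in the Sscrofa11.1 gene table, where 0 symbols changed.

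Models were fitted with limma 3.58.1 in R 4.3.3, two-sided, with Benjamini-Hochberg adjustment over all tested probe sets and a threshold of 0.05; slopes left out the 2 ACTG2 probe sets. The fits were tested on simulated data. Intervals cover 95%. A gene is its brightest probe set. From each pathway list up to 5 called genes with the smallest p were named, or else the 1 with the smallest p, with 5 genes per member for likeness of pattern. Members and lists were chosen with earlier results of these data known.

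The labels call each sow a biological replicate. Same-numbered arrays deviated from their group means with correlations from -0.247 to 0.421. So few pairs cannot settle whether equal numbers share anything, and the main fits leave the numbers out. Alternatives were other scalings, array weights, filters, muscle measures and leaving out each array.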

Additional observations from a re-analysis of the deposited data

Results flagged for a closer look

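The ACTG2 level of low prolificacy array 8, 12.85, stood apart from the other 8 arrays of its group, of which the nearest was at 13.38. The gap was 0.567 of the group's range, against a critical value of 0.493. The check was made on 12 groups of values, and chance flags about 1 in 20 such groups. The same array had the lowest level of the dimmer KCNMB1 probe set in its group, 6.80, and without it the r between that probe set and ACTG2 in the low prolificacy arrays was 0.598.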

How the results depend on the processing

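The high minus low differences of the members moved by less than the SD between arrays under every alternative run, and lay within -6.05 to -4.77 for KCNMB1, -1.63 to -1.34 for its dimmer probe set, -0.14 to 0.064 for OXTR and -1.79 to -1.47 for PTGER3 when 1 array was left out. The counts over all probe sets moved more, and the cause was not tested. Probe sets called between the groups, 1885 in all, numbered 3060 with array weights, 2925 at an adjusted p of 0.10, and 944 (without high prolificacy array 3) to 2650 with 1 array left out, 1002 without high prolificacy array 2. The 62 called ACTG2 slopes became 2915 with array weights, 263 at 0.10, 123 with the smooth muscle mean, 1961 with the second ACTG2 probe set and 29 with the epithelial mean added. With 1 array left out they were 0 (without high prolificacy array 1) to 188 (without low prolificacy array 3), 101 without high prolificacy array 2 and 8 without high prolificacy array 3. In limma they were 0 in low or high prolificacy arrays alone (2847 and 2456 at an unadjusted p under 0.05). At equal ACTG2 the 1 call became 0 among the 12000 brightest probe sets (346 unadjusted in limma) or with the smooth muscle mean (244), 96 with array weights, 2 with trended robust variances, 2 at 0.10, 3 with the second ACTG2 probe set and 0 to 7 with 1 array left out (0 without high prolificacy array 1, 7 without 2 and 3 without 4). List genes called lower, 15 with the members counted in, became 25 with array weights, 24 over every probe set and 11 to 20 with 1 array left out; those called higher, 4, became 2 among the brightest and 3 to 4.

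The KCNMB1 slope was 0.77 with array weights and 1.51 on the smooth muscle mean, and ranged from -0.0098 to 0.75 with 1 array left out. The slope of its dimmer probe set was -0.018 with the second ACTG2 probe set and -0.0064 to 0.160 with 1 array left out. The OXTR slope was 0.110 on the smooth muscle mean, 0.69 in low prolificacy arrays alone and -0.092 to -0.012 with 1 array left out; for PTGER3 the range was 0.048 to 0.236. Over low prolificacy arrays less 1, r with ACTG2 ran from -0.035 to 0.125 for KCNMB1 and -0.086 to 0.345 for PTGER3, and r of the dimmer probe set with the epithelial mean from -0.432 to 0.028. Of 17 named list genes called, 11 kept the call in every fit with 1 array left out. With the replicate number as a block, limma called 35 probe sets between the groups (3197 unadjusted), 0 slopes (841), 0 at equal ACTG2 (406) and 1 list gene lower and 0 higher, and the member slopes were 0.77, 0.115, -0.073 and 0.117. MYH11 had 0 probe sets annotated to its symbol alone, so that muscle measure was not run, and PTGER3 was not among the 12000 brightest.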
